A study of Mus musculus with 96 samples.

Results

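Cultured mouse embryonic stem (ES) cells were compared by their level of Lefty1, a secreted inhibitor of Nodal signalling. Of 96 samples of the series, counts were analysed for 61 single cells cultured with serum and leukaemia inhibitory factor (LIF), called serum/LIF cells. The cells were chosen by their measured Lefty1 level in CPM, the count as a share of the cell's total scaled to a fixed depth. The 23 cells with at least 200 CPM are called Lefty1-high, and the 14 cells with a Lefty1 count of 0 are called Lefty1-silent. The remaining 24 cells had Lefty1 above 0 and below 200 CPM and were left out of the comparison, so that 37 of 61 cells were compared. All compared cells were single wild-type cells of the E14 ES line, given the C57BL/6 strain background in the labels, and all came from serum/LIF. The series lists 76 serum/LIF wells, of which 61 had counts and the rest could not be analysed. It also lists 16 cells from 2i medium and 4 empty wells, which entered no comparison. RNA and DNA of each cell were parted, and the RNA part was sequenced, in a study that joined transcription to DNA methylation in the same cell. The labels do not give the number of cultures, so p-values measure the spread between cells and not between cultures.

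Nodal is a ligand of the TGF-beta family that binds activin receptors together with the co-receptor Tdgf1 (Cripto). The receptors phosphorylate Smad2 and Smad3, which join Smad4 and the DNA-binding partner Foxh1 and turn on target genes. Lefty1 and Lefty2 are among these targets and block the ligand in the space between cells, which closes a negative feedback loop. In the mouse embryo the pathway patterns the epiblast and induces the primitive streak, and serum/LIF cultures are known to mix naive cells with cells closer to the later epiblast.

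Lefty1 (ENSMUSG00000038793, plus strand of chr1:180935022-180938400, GRCm38) had a count in 47 of 61 cells. Its level was used to choose the groups, so its values are a description and carry no test. In the Lefty1-high cells it ran from 218 to 3493 CPM with a median of 675.5, or 756 to 18928 counts. In the Lefty1-silent cells the count of 0 allows up to 0.455 to 0.83 CPM at 3 counts of the total, depending on the cell. The lowest high cell (well B06) had 218 CPM and the highest cell below the limit (well A09) had 158.7 CPM. The cells between fell into a trace set of 14 cells with 1 to 7 counts (0.214 to 2.24 CPM) and an intermediate set of 10 cells with 20.5 to 158.7 CPM. No cell lay between 2.24 and 20.5 CPM.

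**Figure D1:**
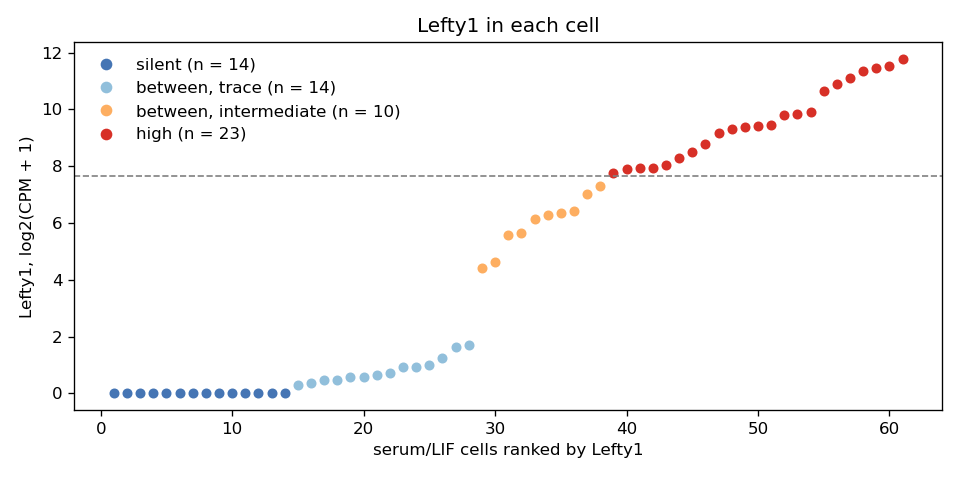
Lefty1 in each of the 61 serum/LIF cells, ranked along the x axis, with log2(CPM + 1) on the y axis; each point is 1 cell, coloured by its Lefty1 level, and the dashed line is the limit of 200 CPM. The 23 high cells reach from 218 to 3493 CPM, and a gap from 2.24 to 20.5 CPM parts the trace cells from the intermediate cells.

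Total counts per cell ranged from 2417702 to 6787261 over the 61 cells, and 5317 to 10032 genes were detected. The high and silent cells were compared for total count, genes detected, mitochondrial share, spike-in share and chromosome 14 share, by permutation tests with 100000 resamples. The lowest of the 5 adjusted permutation p-values was 0.415 and the highest was 0.899. Genes detected spread more widely among silent cells (5317 to 10032) than among high cells (6786 to 9113). The high cells lay in plate rows A to D (11 cells) and E to H (12 cells), and the silent cells lay in them with 9 and 5 cells. The ES cell marker Pou5f1 (Oct4) had a count in every cell, with a median of 1152 CPM (200.6 to 3029) in high cells and 1139 CPM (74.1 to 2366) in silent cells.

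Other targets of Nodal and Smad2 were on average higher in the Lefty1-high cells than in the silent cells. Of 15 listed targets, with Lefty1 not among them, 11 passed the filter on low counts. The difference in mean log2(CPM + 1) had an unadjusted two-sided permutation p under 0.05 for 8 of the 11, all higher, among them T, Fgf8, Lefty2, Tdgf1, Nodal, Eomes and Smad7. Over all 10867 genes tested, 4.5% were higher at that threshold and 3.36% were lower. None of the 8 passed Benjamini-Hochberg adjustment over all genes in edgeR's quasi-likelihood test or in the permutation test, so each is given by its values. The median log2 fold change of the 11 targets in edgeR was 1.89, beside 0.10 over all genes tested. The other 3 members, Skil, Pmepa1 and Mixl1, had permutation p-values of 0.217, 0.99 and 0.558. Lhx1, Gsc, Foxa2 and Cer1 had counts in at most 2 of 61 cells and were not tested. Within plate rows A to D alone 5 targets were past the unadjusted threshold, and within rows E to H 3 were.

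T (Brachyury), the T-box factor of the primitive streak (chr17:8434423-8442496), was detected in 21 of 23 high cells and in 6 of 14 silent cells. Its median was 143 CPM in high cells (0 to 806) and 0 CPM in silent cells (0 to 382). The groups overlap, but a silent cell with T above the median of the high cells occurred only in well C03. The difference in mean log2(CPM + 1) was 4.54 (permutation p = 5e-05, adjusted p = 0.0679). T was among the 5 genes with the highest Spearman correlation with Lefty1 over the 61 cells (rho = 0.60), as were Psme2b (0.58) and Dhrs3 (0.58). These are descriptions over cells that share a library protocol and differ in depth. Fgf8, an FGF ligand of the streak, was seen in 15 high and 4 silent cells, with medians of 44.5 CPM (0 to 771) and 0 CPM (0 to 69.5). Its edgeR log2 fold change was 5.50 ± 1.67 (SE; adjusted p = 0.186). Eomes, another T-box factor of the streak, was detected in 12 high and 3 silent cells, with highest values of 138.5 and 9.3 CPM.

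Lefty2, the paralog of Lefty1 and like it a Nodal inhibitor, was detected in 19 of 23 high cells and in 6 of 14 silent cells. Its median was 83 CPM in high cells (0 to 877) and 0 CPM in silent cells (0 to 108). The groups overlap, and 4 high cells had no Lefty2 count. The difference in mean log2(CPM + 1) was 3.0 (permutation p = 0.0103, adjusted p = 0.449). The 2 genes are near-identical in part, and the rule by which shared reads were counted is not given in the sources used here.

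The pathway's ligand and co-receptor were detected in most cells of either group. Nodal had a median of 105 CPM (0 to 385) in high cells and 5.59 CPM (0 to 193.5) in silent cells, with a permutation p of 0.0323. Tdgf1 had a median of 852 CPM (0.748 to 1814) in high cells and 245 CPM (0 to 1712) in silent cells, with a permutation p of 0.00887. For each gene the ranges of the groups overlap almost fully, and the shift is in the middle of the distribution.

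**Figure D2:**
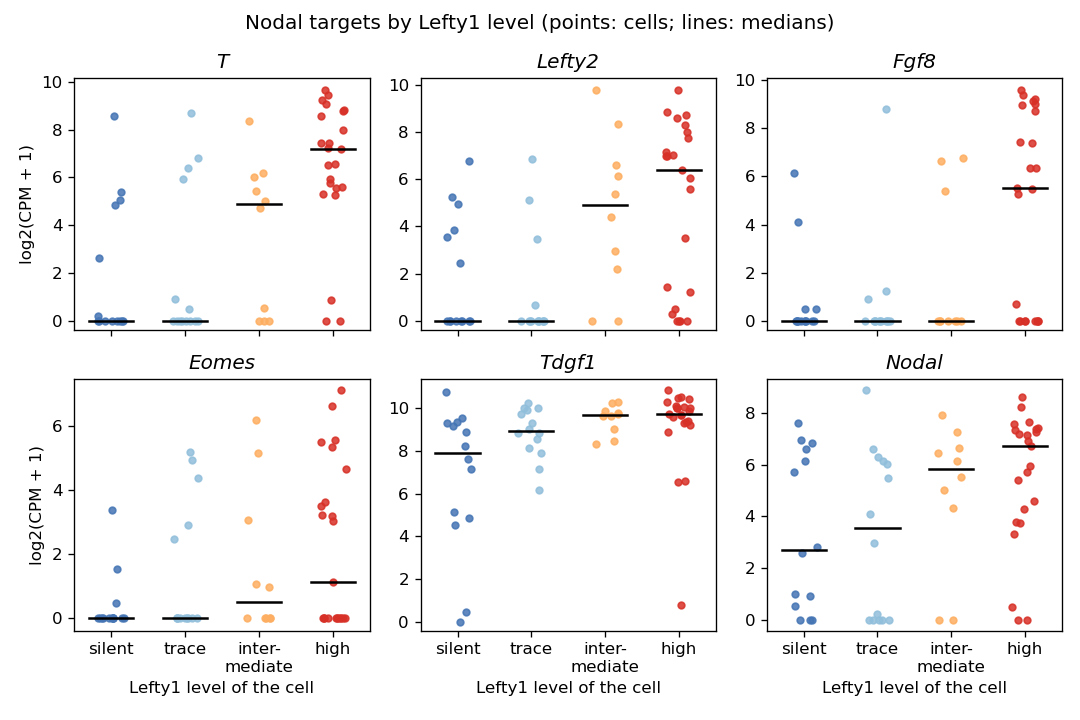
Panels for the Nodal targets T, Lefty2, Fgf8, Eomes, Tdgf1 and Nodal, with the cell's Lefty1 level on the x axis (14 silent, 14 trace, 10 intermediate and 23 high cells) and log2(CPM + 1) on the y axis; points are cells and black lines are medians. T has a median of 0 CPM in silent and in trace cells, 28.5 CPM in intermediate cells and 143 CPM in high cells.

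In the other parts of the pathway few members passed a threshold. Over the 5 lists of ligands and convertases, receptors, Smads and cofactors, antagonists, and targets, 34 genes were tested and none passed edgeR's adjusted threshold. Of these, 9 had an unadjusted permutation p under 0.05, all higher in high cells: the 8 targets above and Foxh1. Foxh1, the DNA-binding partner of Smad2, had a median of 38.5 CPM (0 to 151) in high cells and 4.79 CPM (0 to 58.5) in silent cells (permutation p = 0.0442). Smad2 itself had medians of 2.09 and 15.4 CPM (permutation p = 0.14), and Smad4 had medians of 39.6 and 20.4 CPM (permutation p = 0.173). The receptors Acvr1b, Acvr2a, Acvr2b and Tgfbr1 had permutation p-values from 0.109 (Acvr2b) to 0.993 (Tgfbr1). Gdf3, a related ligand, had medians of 84.3 and 73.3 CPM, and Fst (follistatin), which binds activins, had medians of 32.5 and 0 CPM with a permutation p of 0.0898.

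Naive pluripotency genes lay on the opposite side. Of 20 listed genes, 16 were tested, and 10 of these were lower in Lefty1-high cells at an unadjusted permutation p under 0.05, beside 3.36% of all genes: Zfp42, Esrrb, Tfcp2l1, Klf5, Klf2, Nr5a2, Nr0b1, Zfp57, Manba and Jam2. Manba, a lysosomal mannosidase, and Jam2, a junctional adhesion molecule, also fell in edgeR, with log2 fold changes of -7.60 ± 1.57 (SE; adjusted p = 0.0195) and -6.52 ± 1.51 (SE; adjusted p = 0.0435). Manba and Jam2 passed the filter on low counts only with the silent cells, so their calls are no separate support. For Jam2, well E01 held 79.5% of the silent counts, and the call held in 15 of 37 fits that left out 1 cell. The median log2 fold change of the 16 genes was -2.33. Within plate rows A to D alone 3 naive genes were past the unadjusted threshold, and within rows E to H 2 were. Zfp42 (Rex1), a marker of the naive state, ranged from 0 to 139 CPM with a median of 0.253 in high cells, and from 0 to 1706 CPM with a median of 41.6 in silent cells. Its edgeR log2 fold change was -4.60 ± 1.26 (SE; adjusted p = 0.12), with a permutation p of 0.00022. Klf5, a Krüppel-like factor that sustains self-renewal, had medians of 20.4 CPM (0 to 214) and 114 CPM (0.922 to 238) and a permutation p of 0.00331. Tfcp2l1, a factor downstream of LIF, was detected in 14 of 23 high and 13 of 14 silent cells, with medians of 2.15 CPM (0 to 334) and 129 CPM (0 to 888) and a permutation p of 0.00165. Esrrb, a nuclear receptor of the naive network, was detected in 2 of 23 high cells, at up to 8.95 CPM, and in 7 of 14 silent cells, at up to 151 CPM.

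Nanog was the 1 member of the naive list that was higher in Lefty1-high cells at the same unadjusted threshold. It was detected in 23 of 23 high cells, at 5.7 to 679 CPM with a median of 169, and in 7 of 14 silent cells, at 0 to 729 CPM with a median of 0.465. Fisher's exact test of detection gave an unadjusted p of 0.000333 (adjusted p = 1), and the permutation test gave 0.0017 (adjusted p = 0.284). The edgeR log2 fold change was 0.83 ± 1.01 (SE; adjusted p = 1.0). So each Lefty1-high cell had Nanog counts, and the highest Nanog values of the 2 groups were of similar size.

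The Lefty1-silent cells were not alike in these genes. Zfp42 was above 1000 CPM in 5 of them (wells B09, B10, C02, E01 and H10, at 1081 to 1706 CPM) and at most 53.7 CPM in the other 9. The same 5 cells had Nanog at 199.9 to 729 CPM, while the other 9 had 0 to 26.5 CPM. They also held 2962 to 4472 CPM summed over the 16 naive genes, beside 80.9 to 683 CPM in the other 9 silent cells. Of the 5, 1 had a T count. Among the 23 high cells the highest Zfp42 value was 139 CPM, and their sum over the naive genes was 117 to 919 CPM. The Lefty1-silent group thus held cells with Zfp42 and Nanog and cells with little of either, and no high cell had Zfp42 above 1000 CPM. Of the 24 cells between, 4 had Zfp42 above that level. This division was drawn after the values were seen and is a description of cells, with no test. Well E01 also had the lowest share of counts on chromosome 14 among the silent cells (1.32%), and B10 the fewest genes detected (5317). That share was 1.72% in H10 and 2.45% in B09, 2.97% in C02 and 3.41% in B10, beside 2.89 to 3.65% in the high cells.

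**Figure D3:**
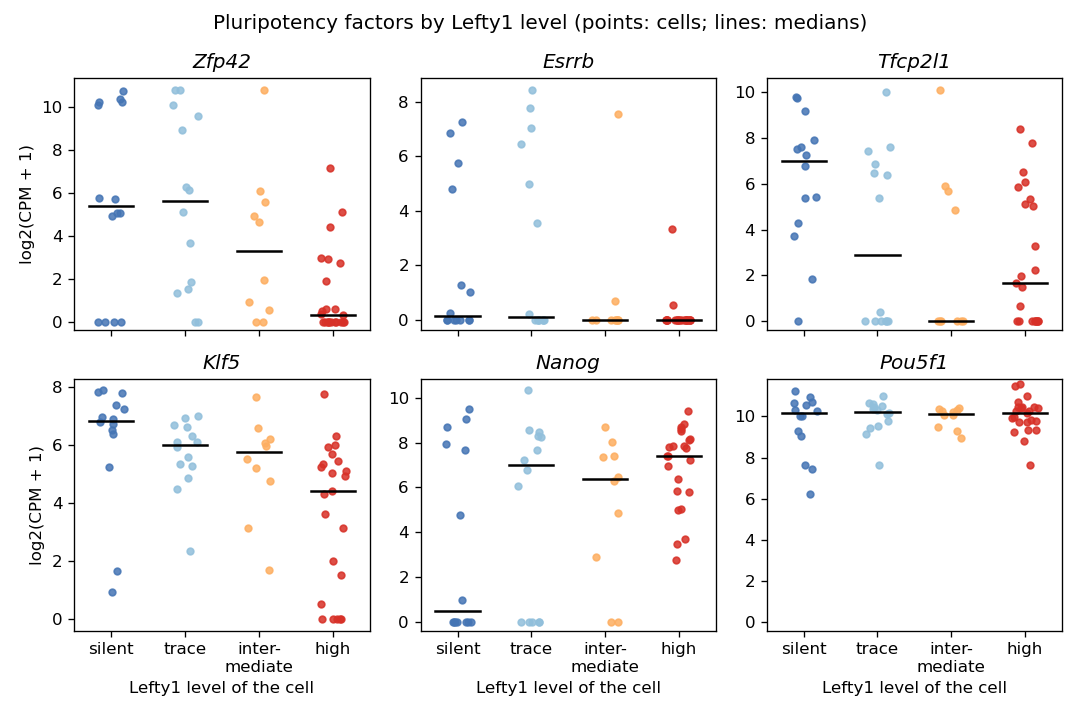
Panels for Zfp42, Esrrb, Tfcp2l1, Klf5, Nanog and Pou5f1, with the cell's Lefty1 level on the x axis and log2(CPM + 1) on the y axis; points are cells and black lines are medians. High Zfp42 values occur in silent, trace and intermediate cells and not in high cells, Nanog is above 0 in each of the 23 high cells, and Pou5f1 medians lie between 1125 and 1202 CPM in all 4 sets.

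The Nodal targets also varied from cell to cell. Their sums overlapped, at 371.9 to 2089 CPM in the 5 silent cells with high Zfp42 and 146 to 2021 CPM in the other 9. The 5 cells had counts of 4 to 6 of the 11 tested targets, and the other 9 had counts of 3 to 10. In B10, 1 of the 5, Tdgf1 alone held 1712 CPM. A high cell had counts of 5 to 11 of the 11 tested targets (median 9), and a silent cell had 3 to 10 (median 6). T and Lefty2 were detected together in 17 of 23 high cells and in 2 of 14 silent cells, and neither was detected in 4 silent cells. The silent cell in well C03 held 382 CPM of T and 108 CPM of Lefty2. Inside the high group, 10 of the 11 targets had a positive Spearman correlation with Lefty1 over the 23 cells (median rho 0.25), beside 51.2% of all genes tested. The highest were Fgf8 (0.57), Skil (0.42) and T (0.39). The naive genes showed no such lean inside the high group, with 9 of 16 positive and 7 negative (median rho 0.03).

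Genes of formative and primed pluripotency, the later epiblast states, were partly higher in Lefty1-high cells. Of 17 tested, 6 were higher at an unadjusted permutation p under 0.05, beside 4.5% of all genes, and none was lower. Zic2 and Fgf5 rose in edgeR. Zic2, a zinc finger factor of the primed enhancer programme, was detected in 16 of 23 high cells (0 to 44.7 CPM, median 4.19) and in 3 of 14 silent cells, at up to 1.55 CPM (log2 fold change 6.33 ± 1.40, SE; adjusted p = 0.0349). Fgf5, the FGF ligand that marks the epiblast, was detected in 9 high cells at up to 120 CPM and in 2 silent cells at up to 0.461 CPM. With 3 Fgf5 counts in the silent group, the ratio of pooled CPM was 702 (95% counting interval 240 to 3404, edgeR adjusted p = 0.041). The interval covers counting error only, and the Fgf5 median of the high cells was 0 CPM. Fgf5 passed the filter on low counts only with the high cells, so its call is no separate support. The call held in 21 of 37 fits that left out 1 cell. Unadjusted, the permutation test gave p = 0.0155 and Fisher's exact test of detection p = 0.15. Zic5 was detected in 19 high and 3 silent cells (medians of 22.7 and 0 CPM, permutation p = 0.00053), and Dnmt3a, a de novo DNA methyltransferase, had medians of 50 and 3.4 CPM (permutation p = 0.00144). Other members did not pass: Dnmt3b had medians of 408.5 and 336 CPM (permutation p = 0.407), and Otx2 was detected in 7 high and 6 silent cells. Krt8 and Krt18 had permutation p-values of 0.376 and 0.785. Silent wells A02, B03, C03, G03 and G05 held 2921 to 6589 CPM of Krt8, with Pou5f1 at 74.1 to 615.5 CPM. High wells G09 and H01 held 3041 and 5223 CPM of Krt8, with Pou5f1 at 439 and 602 CPM. These wells were picked after their values were seen. Of 8 mesendoderm genes tested, 4 were higher at an unadjusted permutation p under 0.05, namely T, Fgf8, Eomes and, at its edge, Wnt3. T, Fgf8 and Eomes are also counted among the Nodal targets. Of the mesendoderm members not tested, Cdx1 had counts in 0 high and 6 silent cells. The others had counts in few cells: Evx1 in 4 high and 1 silent, and Nkx1-2 in 3 and 1. Lhx1, Gsc, Mesp1, Tbx6 and Foxa2 each had counts in 1 high and 0 silent cells, too few to show a lean.

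Over all genes, edgeR called 42 of 10867 (0.386%) at an adjusted p under 0.05. Of these, 18 were higher (0.166%) and 24 lower (0.221%) in Lefty1-high cells. Without adjustment, 646 genes (5.94%) had an edgeR p under 0.05. No gene was called within plate rows A to D alone or E to H alone, where 824 of 10864 and 952 of 10850 genes had an unadjusted p under 0.05. Most calls were genes seen in few cells: 39 of the 42 had a count in fewer than 50% of the compared cells, which holds for 31.6% of all genes tested. On simulated counts the edgeR test made more false calls than its threshold allows. The permutation test (0.0% called) and Fisher's exact test (0.0% called) passed no gene after adjustment, with 854 (7.86%) and 408 genes (3.75%) at an unadjusted p under 0.05.

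The genes called higher were detected in at most 3 of the 14 Lefty1-silent cells. Dhrs3, a retinaldehyde reductase (chr4:144892827-144928209), was detected in 11 of 23 high cells, at up to 193 CPM, and in none of 14 silent cells. It was at least 52.9-fold higher in high cells against a floor of 3 counts per silent cell. Dhrs3 reached the filter on low counts through the high cells, 10 of which had 10 or more counts, beside 1 cell between, so its call is no separate support. In the same sense 15 of the 18 genes called higher, and 19 of the 24 called lower, passed the filter only with the cells of the group where they were higher. Cryl1, Satb1, Tmem200a and Gemin8 also had no count in any silent cell, and each was seen in 9 high cells. Cnksr3, a scaffold protein of the CNKSR family, was detected in 12 high cells, at up to 92.5 CPM, and in 1 silent cell at 1.4 CPM (edgeR log2 fold change 7.81 ± 1.57, SE; adjusted p = 0.0181). It was the 1 gene called higher that stayed past the threshold in all 37 fits that left out 1 cell. Of the genes called lower, 7 did so (Tfpi, Rpl39l, Itga8, Sema3c, Arhgef3, Pvt1 and AU018091). All 8 genes passed the filter only with the cells of the group where they were higher, so this is no separate support. Tgfbr3 (betaglycan), a co-receptor for TGF-beta ligands and inhibins, was detected in 10 high cells, at up to 223 CPM, and in 2 silent cells at up to 0.777 CPM (edgeR log2 fold change 8.19 ± 1.75, SE; adjusted p = 0.0275). Further calls were Ank2, which links membrane proteins to the cytoskeleton (16 high and 3 silent cells), the receptor tyrosine kinase Erbb2 (11 and 2 cells), the kinesin light chain Klc3 (14 and 1), the myosin chaperone Unc45b (11 and 1), Klhl11 (10 and 1) and Mllt1, of the super elongation complex (11 and 1).

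Among the genes called lower, Tmsb4x was the call with a count in every compared cell. Tmsb4x (thymosin beta 4, chrX:167207093-167209315) binds actin monomers. It had a median of 256 CPM (23.5 to 1493) in high cells and 1271 CPM (146 to 3054) in silent cells, with overlapping ranges. Its log2 fold change was -1.95 ± 0.43 (SE; edgeR adjusted p = 0.0349), with a permutation p of 0.00012 (adjusted p = 0.1). In trace cells the median was 398 CPM and in intermediate cells 670 CPM, so the levels did not follow the order of Lefty1 across the 4 sets.

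The other named genes called lower were found in few high cells. Tfpi, the inhibitor of the tissue factor pathway of clotting (chr2:84432855-84476775), had 3 counts in 1 of 23 high cells and 5451 counts in 9 of 14 silent cells. The ratio of pooled CPM, high over silent, was 0.000368 (95% counting interval 7.58e-05 to 0.00108), and the edgeR adjusted p was 6.11e-05. AU018091 was detected in 2 high cells, at up to 7.55 CPM, and in 10 silent cells, with a median of 22.8 CPM and a highest value of 263 CPM (log2 fold change -6.88 ± 1.38, SE; edgeR adjusted p = 0.0181). Its permutation p was 1e-05, the smallest that 100000 resamples can give (adjusted p = 0.0543), and its rho with Lefty1 over 61 cells, -0.55, was the lowest of all genes tested. Tdrd12, a tudor protein of the germline piRNA pathway, was detected in 2 high and 8 silent cells, Arhgef3, a guanine nucleotide exchange factor, in 2 and 8, and the ubiquitin ligase Rnf19b in 4 and 11. Gnb1l was detected in 4 and 6 cells, 4930548H24Rik in 4 and 7, and Gm5784 in 3 and 10. In each of these the highest silent value exceeded the highest high value.

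Some of the genes called lower lay mainly in the silent cells with high Zfp42. For 12 of the 24, the silent cell with the most counts was B09, B10, C02, E01 or H10, which holds for 34.5% of all tested genes with a silent count. For 11 of the 24, at least 50% of the silent group's counts came from these 5 cells, beside 17.9% of those genes. The median share of silent counts in the 5 cells was 44% over the 24 genes and 28.6% over all. Rpl39l, a ribosomal protein paralog known from the germline, was detected in exactly these 5 silent cells and, with 1 count, in 1 high cell (edgeR adjusted p = 6.5e-05; named after its values were seen). For 4930548H24Rik they held 99.5% of the silent counts, for Manba 87.6%, for AU018091 83.1% and for Tdrd12 82.4%. Other lower calls lay elsewhere: Itga8, Sema3c, Gprc5a, Tmem30b and Endod1 had no count in the 5 cells. At least 50% of the group's counts came from 1 cell for 6 genes called lower and 2 called higher.

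**Figure D4:**
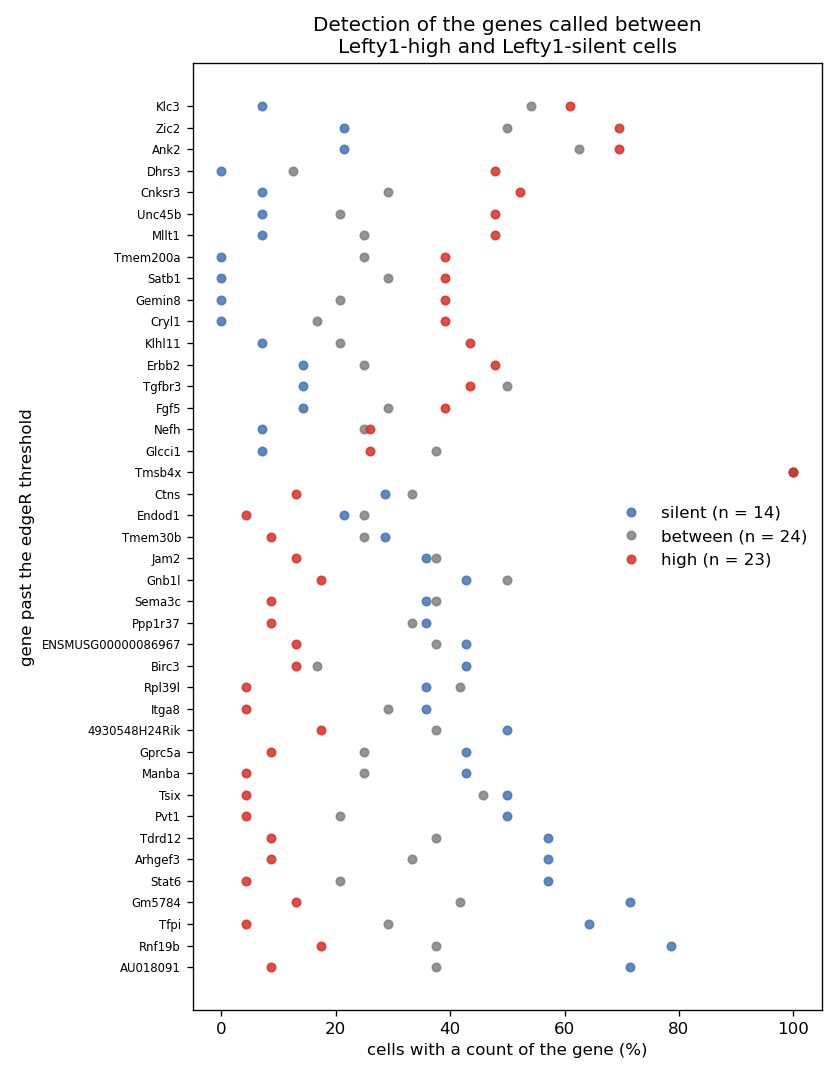
Share of cells with a count (x axis, percent) for 41 of the 42 genes past the edgeR threshold (y axis), in the 14 silent, 24 between and 23 high cells; each point is 1 gene in 1 group. Over all 18 genes called higher the median share is 45.7% in high cells and 7.14% in silent cells, and over the 24 called lower it is 8.7% and 42.9%.

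The cells between, which entered neither group, were used to look at the same genes again. Over these 24 cells all 11 tested Nodal targets had a positive Spearman correlation with Lefty1 (median rho 0.39), beside 57.7% of all genes tested. All 8 mesendoderm genes were positive as well (median rho 0.31), and 15 of 16 naive genes were negative, beside 42.2% of all genes. The target and mesendoderm lists share members, among them T, Fgf8 and Eomes. Other lists were mostly positive too: 7 of 7 Wnt targets, 7 of 7 tested primitive endoderm markers, 10 of 11 BMP targets, 9 of 10 immediate-early and stress genes and 14 of 16 ERK targets were positive. The part of the endoderm markers in these correlations was not tested. Of the genes called by edgeR, 11 of 18 called higher were positive and 11 of 24 called lower were negative. Members of a list share cells and depth. Of the rest, 10 genes of the formative and primed list were positive and 7 negative. Nanog, detected in each high cell, had a rho of -0.24 in the cells between.

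Genes beside Lefty1 on chromosome 1 were also higher in Lefty1-high cells. This window was chosen after the values were seen. Within 250 kb of Lefty1, 10 other genes were tested and are reported, and 6 were higher at an unadjusted permutation p under 0.05, beside 4.5% of all genes. None passed edgeR's adjusted threshold, and 3 had an unadjusted edgeR p under 0.05. Tmem63a, a mechanosensitive channel gene 3.94 kb away, was detected in 15 of 23 high cells and 3 of 14 silent cells (permutation p = 0.0187). Acbd3, a Golgi protein 181 kb away, was detected in 22 high and 8 silent cells (permutation p = 0.00658). The histone gene H3f3a had medians of 568 CPM (368.5 to 950) and 411 CPM (298 to 958), with a permutation p of 0.00247. It overlaps the non-coding gene Gm17275, so their counts cannot be told apart without the strand. Lefty2 and Sde2 were the other genes past that threshold, and Mixl1, 2210411M09Rik, Nvl and Cnih4 were not.

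**Figure D5:**
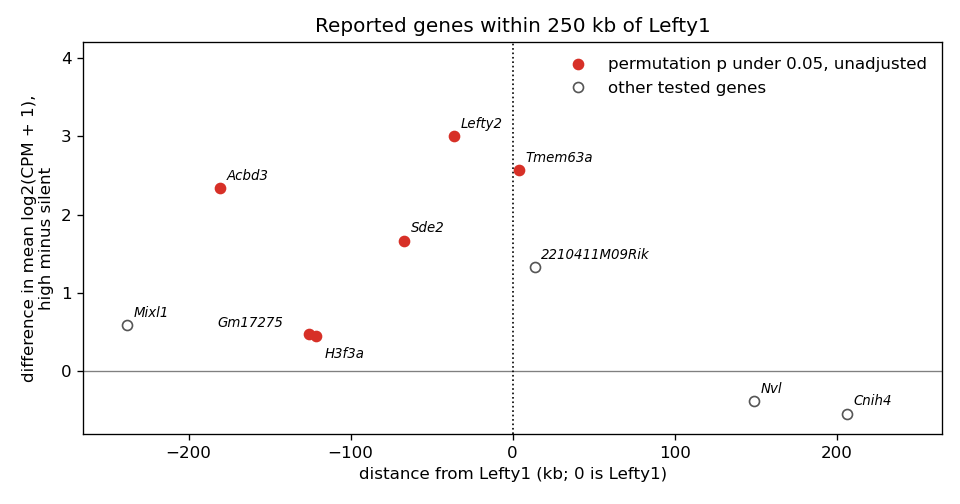
Difference in mean log2(CPM + 1), Lefty1-high minus Lefty1-silent (y axis), against distance from Lefty1 in kb (x axis; negative is towards lower coordinates), for the 10 reported genes within 250 kb; filled points have an unadjusted permutation p under 0.05. The 6 filled points lie above 0, and Nvl and Cnih4 lie below it.

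Promoter sequences of the called genes and the targets were searched for letters known from the pathway's DNA-binding proteins. RefSeq promoters on GRCm38.p6, from 250 bases before to 50 after a start, were searched on both strands for the FOXH1 motif AATNCACA and for the Smad palindrome GTCTAGAC. The FOXH1 letters were in 3.6% of all promoters and the palindrome in 0.213%. Of 25 promoters of genes called higher, 2 held the FOXH1 letters (Dhrs3 and Glcci1), and of 23 promoters of genes called lower, none did. Nodal targets had 10 promoters, from 8 of the 15 listed genes, and none held them. These are too few to tell from the 3.6% of all promoters. Among the naive genes, 2 overlapping promoters of 1 gene, Nanog, held them. The palindrome was in none of these promoters. Lefty1 and Lefty2 had no entry in the table. The sequences below show the match in Nanog (chr6:122707239-122707488, plus strand), detected in each high cell, 31 bases before the start, and T as a target without a match (chr17:8434173-8434422, plus strand). They also show the 30 bases around the match in Dhrs3 (chr4:144893132-144893161, plus strand), which begins at base 7 after its start. Capitals mark the FOXH1 letters. In Nanog they occur 2 times, on the opposite strand and, overlapping it, on the plus strand; in Dhrs3 they occur on the opposite strand.
Nanog: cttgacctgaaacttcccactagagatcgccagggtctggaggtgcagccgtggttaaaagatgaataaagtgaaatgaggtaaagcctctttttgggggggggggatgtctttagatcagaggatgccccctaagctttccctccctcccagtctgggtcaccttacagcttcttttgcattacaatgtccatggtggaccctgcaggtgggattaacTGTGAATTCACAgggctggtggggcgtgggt
T: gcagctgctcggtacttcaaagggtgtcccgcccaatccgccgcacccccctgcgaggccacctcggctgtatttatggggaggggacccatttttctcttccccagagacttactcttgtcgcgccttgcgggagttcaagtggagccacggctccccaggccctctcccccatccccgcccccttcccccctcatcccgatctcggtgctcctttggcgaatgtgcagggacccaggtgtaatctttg
Dhrs3: taaacattaccTGTGAATTtcccagccgaa

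Further gene groups were read in the same way. Of 30 S-phase genes, 35 G2/M genes, 11 mitochondrially encoded genes and 7 Wnt targets tested, none had an unadjusted permutation p under 0.05. Of 13 LIF and STAT3 genes, 4 were lower, beside 3.36% of all genes, and none higher. These were Lifr, Il6st, Klf5 and Tfcp2l1, the last 2 of which are also counted in the naive list. Lifr, the LIF receptor, was detected in 6 of 23 high cells and 8 of 14 silent cells, with medians of 0 and 24.7 CPM (permutation p = 0.00077). Of 16 ERK targets, 3 were higher, beside 4.5% of all genes, and 1 lower. Egr1, an immediate-early factor, had medians of 37.6 CPM (0 to 473) in high cells and 0.234 CPM (0 to 46) in silent cells (permutation p = 0.00831).

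Markers of other cell types had summed levels that overlapped between the groups. Of the primitive endoderm list, 7 of 20 genes were tested and 1 was higher (Apoe); Gata6 had counts in 1 high and 2 silent cells. The summed level of that list was 311 to 2809 CPM in high cells and 281 to 2247 CPM in silent cells. Of neurectoderm markers, 6 of 15 were tested and 1 was lower (Tubb3), with sums of 0 to 254 CPM in high cells and 0 to 628 CPM in silent cells, and Sox1 was at 0 in all 61 cells. Trophectoderm markers had sums of 0 to 590 CPM and 0 to 529 CPM, and 1 of 4 tested was higher (Eomes). Of those not tested, Tead4 had counts in 1 high and 6 silent cells, and Krt7 in 3 and 2. Fibroblast markers summed to 70.6 to 4727 CPM and 53.5 to 6342 CPM, with none of 5 tested past the threshold, of 19 listed. Of those not tested, Col1a1 had counts in 0 high and 6 silent cells, S100a4 in 1 and 4 and Loxl1 in 2 and 4. Thy1 had counts in 3 high and 0 silent cells, and Twist1 in 5 and 2. Of 8 markers of the totipotent-like state none passed the filter on low counts, and their sum was at most 2 CPM in either group.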

How the data were processed

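The deposited table holds raw counts per gene as whole numbers, which the authors made with GSNAP, SAMtools 0.1.18 and bedtools 2.19.1 on GRCm38, per the submitters' processing notes, which also name DESeq2. How reads were assigned, with which annotation and whether by strand, is not given in the sources used here. Values of near-identical copies and overlapping genes (Lefty1 and Lefty2, Psme2 and Psme2b, Rpl39l, Gm5784, Tsix) are therefore uncertain. Reads carry no molecular identifiers in the labels, so limits and intervals cover counting error only. The deposited normalized table was not used. Of 36300 rows, 95 are spike-ins and stayed out of library sizes; 34880 of the other 36205 matched a symbol in GENCODE M21 (GRCm38), the source of coordinates.

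CPM is the count divided by the cell's total over gene rows. A gene was tested where 10 or more of the 61 cells had 10 or more counts (10867 genes without Lefty1). The high and silent cells were compared with edgeR 4.0.16 in R 4.3.3 (quasi-likelihood test, robust, TMM, share of genes detected as covariate) and Benjamini-Hochberg adjustment over all genes tested. The SE is the absolute log2 fold change divided by the square root of its F. A permutation test per gene of mean log2(CPM + 1), with a pseudocount of 1 and 100000 resamples, and Fisher's exact test of detection, both two-sided, were added after the data were seen. DESeq2 1.42.0 and limma 3.58.1 were alternatives. Lists are described by counts and medians, without a test. The procedures were tested on simulated data.

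The groups, gene lists and tests were chosen with earlier results of these data known. Named genes were the up to 12 calls of smallest p in each direction with counts in at least 10 compared cells, all Nodal pathway members, 15 preset pluripotency and lineage genes, called list members and the 5 genes of highest and lowest rho with Lefty1. Others, among them Tfcp2l1, Nr5a2, Klf2, Zic5, Dnmt3a, Sall2, Lifr, Egr1, Rpl39l, Itga8, Sema3c, Pvt1, Cryl1, Satb1, Tmem200a, Gemin8 and the neighbours of Lefty1, were named after their values were seen. Some genes are not reported here.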

Additional observations from a re-analysis of the deposited data

Results flagged for a closer look

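Spike-in rows hold few reads in these data. In the Lefty1-silent cell of well B03 4 spike-in reads were counted, the highest number in any cell, above the limit of 3 that a count of 0 allows. Of 61 cells, 8 had any spike-in read, in 2 of the 95 spike-in rows. The reads entered no comparison.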

How the results depend on the processing

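The counts of edgeR calls (18 higher, 24 lower) moved with most choices, and the causes were not tested. DESeq2 called 109 genes higher. Limma-trend called 5 higher, none of them among the 18, and 2 lower. With silent cells taken as those below 5 CPM, 16 were higher, of which 2 were among the 18, and 21 were lower, of which 16 were among the 24. A fit without the covariate called 2 and 14, and a limit of 400 CPM for high cells 8 and 12. Groups by the sum of Lefty1 and Lefty2 gave 1 higher. Three-group and slope fits over all 61 cells gave 8 and 15, and 6 and 4. E01 was the 1 cell with a chromosome 14 share below 0.5 of the median. Without E01 5 were higher, which is also the fit that leaves out this cell alone, and without B10 and C04 2 were. Without a filter on low counts 1233 and 591 genes were called, and with counts in at least 20 cells 0 and 0 were, with 300 genes at an unadjusted edgeR p under 0.05. Plate rows A to D and E to H each gave 0 and 0, and Fisher's exact and permutation tests gave 0 and 0.

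Leaving out 1 cell gave 1 (without B09) to 18 higher and 10 (without A02) to 26 lower calls. The higher count moved by over 1.5 times in 19 of 37 such fits (A02, B03, B04, B09, B10, C02, C03, C04, C10, D02, E01, E02, E03, E05, F03, G03, G05, G06 and H10), and the lower count in 8 (A02, B09, B10, D04, E02, E03, G03 and H10). The log2 difference of Endod1 turned to 0.93 (edgeR adjusted p = 1) in rows E to H, and that of Ctns, at -7.23 to 1.05 when 1 cell was left out, to 1.05 (edgeR adjusted p = 1.0) without C02, the cell that held 98.7% of its silent counts.

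List members at an unadjusted permutation p under 0.05 numbered 6 to 8 Nodal targets, 7 to 11 naive, 5 to 7 formative and primed and 3 to 4 mesendoderm genes when 1 cell was left out. In rows A to D they were 5 targets, 3 naive and 2 mesendoderm genes, and in rows E to H 3, 2 and 2, with fewer cells in each. Without B10 and C04 they were 6, 8, 5 and 4. No paired analysis was possible because each sample is 1 cell and the groups share no replicate numbers.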

Other observations

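The next 4 genes were picked after their values were seen, so they stand for no gene group. Psme2, a subunit of the proteasome activator PA28, was detected in 23 of 23 high cells and 12 of 14 silent cells. Its median was 509 CPM (192 to 1843) in high cells and 107 CPM (0 to 966) in silent cells (permutation p = 4e-05, adjusted p = 0.0679). Psme2b, a near-identical copy whose reads cannot be told apart here, had medians of 80.4 and 15 CPM. Psmb10, an immunoproteasome subunit, had medians of 308 CPM (29.7 to 1026) and 58.5 CPM (0 to 801), with a permutation p of 0.00037 (adjusted p = 0.155). Irgm1, an interferon-inducible GTPase, was detected in 19 high and 4 silent cells (permutation p = 0.00044, adjusted p = 0.165). In edgeR the adjusted p-values of these 4 genes were 0.817, 0.87, 0.969 and 1.0.

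Spp1 (osteopontin), a secreted phosphoprotein, was among the 5 genes of lowest rho with Lefty1 over the 61 cells (rho = -0.50). It had a median of 0.411 CPM (0 to 2600) in high cells and 429 CPM (0.232 to 3218) in silent cells (permutation p = 0.0006, adjusted p = 0.182). Camk1d, a calcium-dependent kinase of the same 5, was detected in 1 of 23 high cells and 9 of 14 silent cells (permutation p = 0.00019, adjusted p = 0.114). Trim67, a ubiquitin ligase family member picked after its values were seen, was detected in 19 high and 2 silent cells, with medians of 98.1 and 0 CPM (permutation p = 0.00084, adjusted p = 0.21).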
